A study of Mus musculus with 6 samples.

Results

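Potassium channel genes were examined in 6 mouse tumours, 3 gliomas that had relapsed after extinction of a mutant epidermal growth factor receptor (EGFR) and 3 control gliomas driven by that receptor. The genes were all those whose symbol in the platform annotation starts with Kcn and whose probe set names no other gene, and they numbered 92 of 19938 genes tested. They were read by 95 probe sets, and for the 3 genes with 2 of them (Kcna2, Kcnh8 and Kcnma1) the probe set with the higher mean over the 6 arrays was used. All tumours grew from mutant EGFR-driven glioma cells placed under the skin of the flanks of Nu/Nu mice, a nude strain that lacks a thymus and most T cells. The drinking water held doxycycline at 2 g/L for some mice, and tumours were taken at 2 cm3. The labels do not say which group drank the drug. The relapsed gliomas are numbered 1, 2 and 3 and the control gliomas 1, 2 and 4, with 1 array each. No genotype, age or number of cell lines is given in the labels, and the sample titles carry 6 different numbers without saying whether these are animals, so p-values measure only how these samples differ from each other, which may be technical.

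Potassium channels let potassium ions leave or enter the cell along their gradient and so set the resting potential and the shape of electrical signals. Voltage-gated channels open on depolarization, inward rectifiers hold the membrane near the potassium equilibrium potential, tandem-pore-domain channels carry leak currents, and calcium-activated channels couple the membrane to calcium signals. In the brain, glia use inward rectifiers to clear potassium released by neurons, and oligodendrocyte progenitors carry A-type voltage-gated currents. Several channels have also been studied in glioma cells for their part in cell volume and migration.

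Relapsed gliomas had lower levels of 7 potassium channel genes, and no member rose. The genes that fell were Kcnip3, Kcnd3, Kcnj10, Kcnk5, Kcnk10, Kcnab3 and Kcnc1. By limma with Benjamini-Hochberg adjustment over all genes and a threshold of 0.05, 7.61% of the members fell, against 5.47% of all genes, and 0% rose, against 3.69%. In either direction 9.16% of all genes were called. The share that fell was near that of all genes. At an unadjusted p under 0.05, limma gave 2 members that were higher (Kcne3 and Kcnj14, 2.17%), against 11.2% of all genes, and 13 that were lower (14.1%), against 15.4% of all genes. Of the 7, Kcnip3, Kcnd3 and Kcnj10 fell at least 2-fold. These 3 make 3.26% of the members, and 1.58% of all genes passed the test with a fall of that size. Kcnj16 was also more than 2-fold lower by mean but did not pass. The same held for the probe set used for Kcnma1, which lists no RefSeq transcript of that gene. Its arrays were split into high and low within both groups, and the other Kcnma1 probe set differed by only -0.29. The median difference, relapsed minus control on the log2 scale, was -0.03 over the members and -0.02 over all genes. For 73 members the difference was smaller than 0.5. All 3 relapsed arrays lay below all 3 control arrays for 15 members (16.3%), against 17.8% of all genes, and above them for 3 members (3.26%), against 13.0%. The probe sets for which no gene is listed had a median of 5.66, called the unnamed-probe median here, and 23 members (25%) had means under it in both groups, against 25.1% of all genes. The brighter 50% of genes held 12 members (13%).

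**Figure D1:**
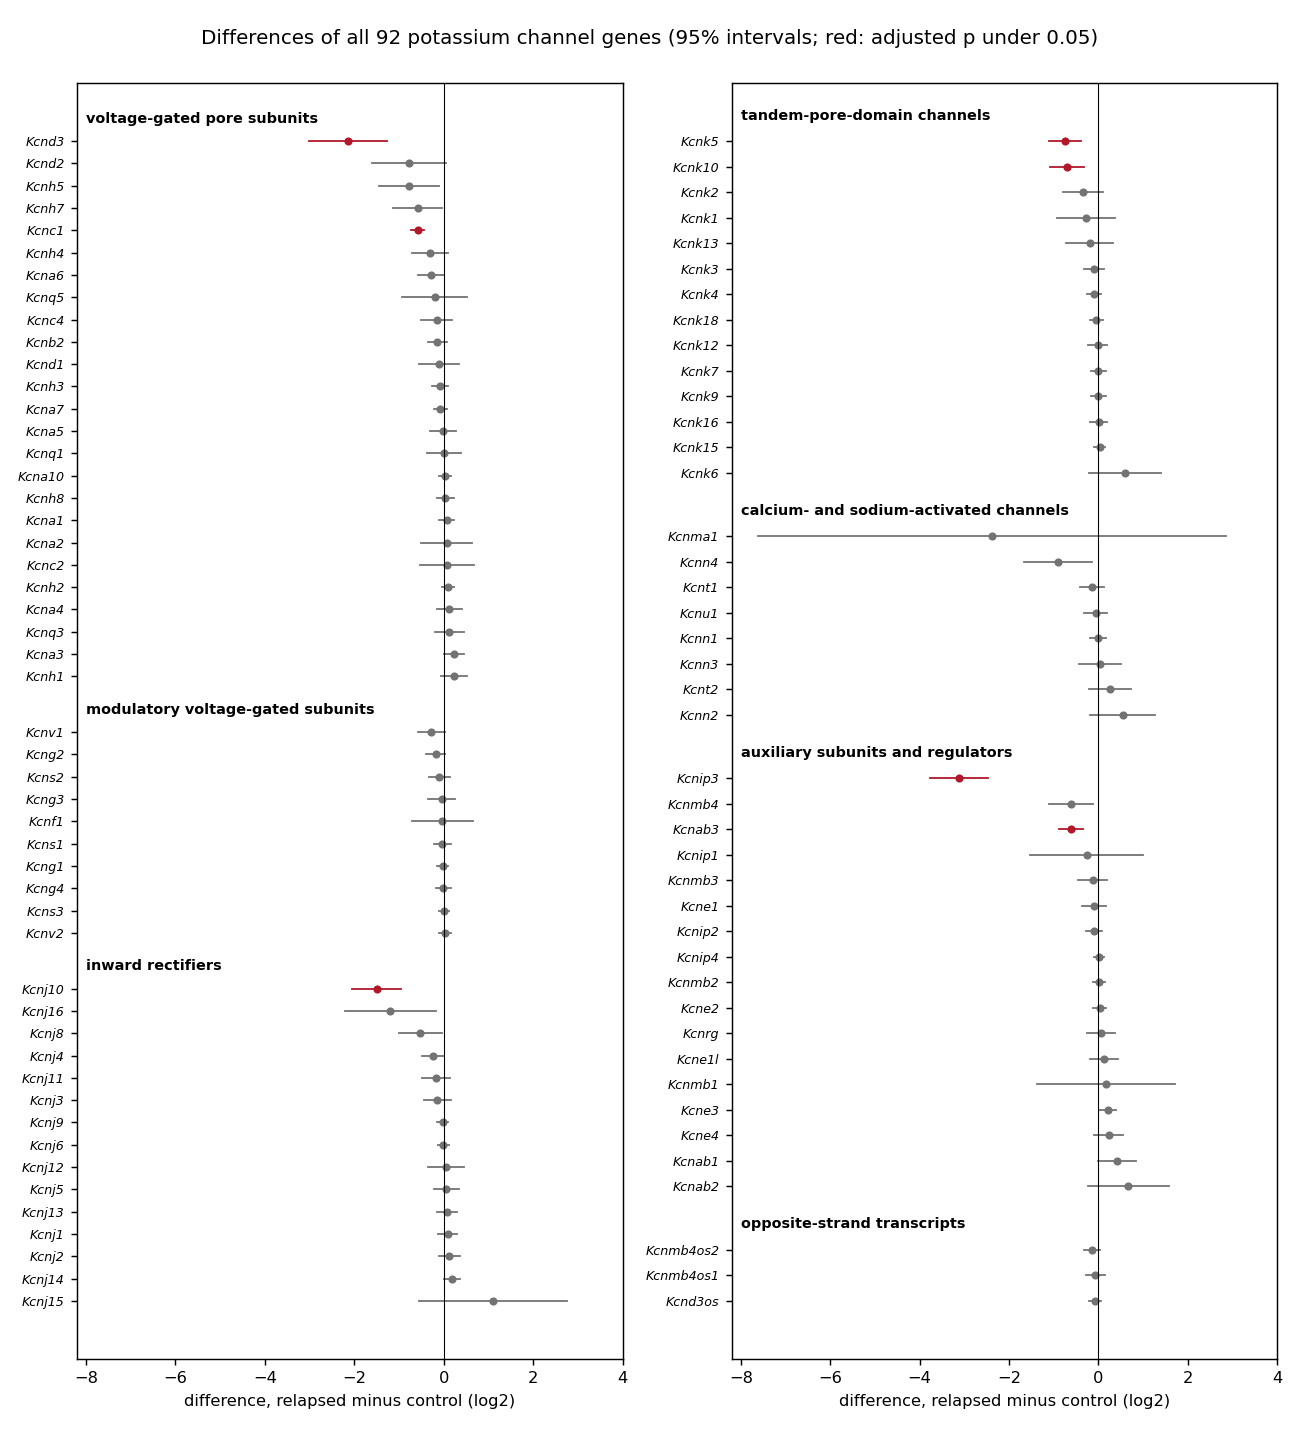
Difference of each of the 92 potassium channel genes, relapsed minus control on the log2 scale (x axis), with its 95% interval from limma, grouped by channel type. The 7 genes in red passed the test and all lie below 0, and most other genes lie close to 0.

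The 300 bases around the start of 4 of the genes that fell are shown to make the genes with the largest falls, and Kcnc1, readable at sequence level. Each window runs from 250 bases before to 50 bases after a start in RefSeq, build GRCm38.p6, 5′ to 3′ on the strand of the gene. Capitals mark matches on either strand to the E-box sequences CAGCTG and CAGATG and to the GC box GGGCGG, none of which overlap here. Kcnip3 has 3 such windows and the one farthest upstream is shown, at chr2:127522045-127522344, minus strand. The Kcnd3 window lies at chr3:105451640-105451939, plus strand, that of Kcnj10 at chr1:172340960-172341259, plus strand and that of Kcnc1 at chr7:46396218-46396517, plus strand.
Kcnip3: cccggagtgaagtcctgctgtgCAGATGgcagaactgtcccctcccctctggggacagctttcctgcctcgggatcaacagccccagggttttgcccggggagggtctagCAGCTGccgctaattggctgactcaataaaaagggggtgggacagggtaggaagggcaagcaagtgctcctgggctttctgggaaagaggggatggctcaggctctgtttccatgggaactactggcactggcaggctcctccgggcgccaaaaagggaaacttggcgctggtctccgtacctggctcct
Kcnd3: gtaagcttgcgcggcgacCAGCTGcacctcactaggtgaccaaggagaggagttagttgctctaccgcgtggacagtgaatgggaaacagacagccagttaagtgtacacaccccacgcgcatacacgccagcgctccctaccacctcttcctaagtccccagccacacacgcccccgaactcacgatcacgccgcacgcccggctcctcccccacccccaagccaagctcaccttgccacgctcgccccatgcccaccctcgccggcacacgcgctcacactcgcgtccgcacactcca
Kcnj10: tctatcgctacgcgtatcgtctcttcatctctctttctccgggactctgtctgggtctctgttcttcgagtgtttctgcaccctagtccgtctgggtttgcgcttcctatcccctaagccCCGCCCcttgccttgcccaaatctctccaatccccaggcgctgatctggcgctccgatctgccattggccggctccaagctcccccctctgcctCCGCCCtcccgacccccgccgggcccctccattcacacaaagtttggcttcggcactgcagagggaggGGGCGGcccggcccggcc
Kcnc1: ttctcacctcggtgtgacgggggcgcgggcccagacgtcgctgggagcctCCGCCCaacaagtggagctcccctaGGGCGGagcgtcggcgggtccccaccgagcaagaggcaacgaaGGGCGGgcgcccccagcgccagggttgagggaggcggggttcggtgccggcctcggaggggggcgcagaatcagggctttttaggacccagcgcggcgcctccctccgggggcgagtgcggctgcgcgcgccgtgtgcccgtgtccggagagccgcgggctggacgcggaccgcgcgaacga
The Kcnip3 window held 1 CAGCTG and 1 CAGATG, and the Kcnd3 window held 1 CAGCTG. The windows of Kcnj10 and Kcnc1 held 3 GC boxes each and neither E-box. CAGCTG occurred in 16.3% of 32851 windows of the same length, CAGATG in 17.2% and GGGCGG in 35.7%. In the 95 windows of members the shares were 25.3%, 20% and 47.4%. The share of G and C was 60.3% for Kcnip3, 64.0% for Kcnd3, 63.7% for Kcnj10 and 74.7% for Kcnc1. These matches describe the letters in these windows only. Of the 92 members, 70 had a window.

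Among 25 voltage-gated pore subunits, 2 fell (8%, against 5.47% of all genes) and none rose (against 3.69%) by limma. At an unadjusted p under 0.05, 4 were lower (16%) and none higher, against 15.4% and 11.2% of all genes. Kcnd3 encodes a pore subunit of the Kv4 family, which carries the A-type current. Its log2 level was 7.06, 6.73 and 6.84 in relapsed 1, 2 and 3, against 8.24, 9.46 and 9.36 in control 1, 2 and 4. All relapsed arrays lay below all control arrays, and control 1 was the lowest of the controls. Kcnd3 fell by 2.14 ± 0.35 (standard error from limma, here and after each difference; 3 arrays per group), which is 4.41-fold (adjusted p = 0.0262). Leaving out 1 array at a time, the call of Kcnd3 remained without control 1 and was lost in the other 5 fits, with adjusted p of 0.0654 to 0.0934 and its difference was -2.53 to -1.92 over the 6 fits. Kcnd2, another Kv4 pore subunit, had levels of 5.84, 5.78 and 5.51 in relapsed and 5.78, 7.03 and 6.67 in control tumours, a difference of -0.79 ± 0.33 that missed the threshold (adjusted p = 0.207). In both genes the relapsed arrays were close together and control 1 was nearer to them than control 2 and control 4. Kcnd1, the third Kv4 gene, differed by -0.10 ± 0.18 with a 95% interval of -0.56 to 0.35. The transcript annotated on the opposite strand of Kcnd3, Kcnd3os, differed by -0.07 ± 0.05 and missed the threshold.

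Kcnc1 encodes a Kv3 pore subunit that lets neurons fire fast. Its level was 5.94, 6.02 and 6.01 in relapsed and 6.51, 6.58 and 6.62 in control tumours, and the relapsed values lay little above the unnamed-probe median. The spread within each group was small beside the difference, and the groups did not overlap. Kcnc1 fell by 0.58 ± 0.06 with an adjusted p of 0.0109 in limma, and it kept its call with any 1 array left out. The ether-a-go-go type subunits Kcnh5 and Kcnh7 were also lower on every relapsed array, by differences of -0.77 ± 0.27 and -0.58 ± 0.22, but missed the threshold (adjusted p of 0.140 and 0.165 in limma). Kcnh2, the cardiac HERG subunit, had a difference of 0.09 ± 0.05. None of the 8 Kcna genes was called, against 9.16% of all genes. Kcna3, the channel of lymphocytes and activated microglia, had levels of 8.07, 7.99 and 7.83 in relapsed and 7.64, 7.83 and 7.76 in control tumours. Its difference of 0.22 ± 0.09 missed the threshold (adjusted p = 0.189), while the 17 macrophage and microglia markers averaged 10.23 to 10.78 in relapsed and 8.92 to 9.22 in control tumours, with 11 risen and none fallen. The part of these cells in the level of Kcna3 was not tested. Kcnb2 and Kcnq3 differed by -0.14 ± 0.08 and 0.13 ± 0.13, and the means of Kcnb2 lay below the unnamed-probe median in both groups. The 10 modulatory subunits of the Kcnf, Kcng, Kcns and Kcnv families, which form no channel alone, had differences of -0.28 to 0.04. None of them was called, against 9.16% of all genes. At an unadjusted p under 0.05, none was lower or higher, against 15.4% and 11.2% of all genes. Among them Kcnf1, Kcng2, Kcns2 and Kcnv1 had differences of -0.03, -0.18, -0.10 and -0.28, and that of Kcns2 was -0.0080 without relapsed 1. The means of Kcns2 lay below the unnamed-probe median in both groups.

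Kcnip3 fell the most among all members. It encodes KChIP3, a calcium-binding protein that attaches to Kv4 channels and is also known as calsenilin and as the transcriptional repressor DREAM. Its level was 7.74, 7.79 and 7.22 in relapsed 1, 2 and 3, against 10.42, 11.18 and 10.53 in control 1, 2 and 4. The lowest control array exceeded the highest relapsed array by far more than the arrays of either group differed. Kcnip3 fell by 3.13 ± 0.26, which is 8.74-fold (adjusted p = 0.00886 in limma), and its difference was -3.27 to -2.89 with any 1 array left out, each time with the call kept. The other KChIP genes were not called. Kcnip2 and Kcnip4 lay below the unnamed-probe median in both groups, with differences of -0.09 ± 0.07 and 0.01 ± 0.05. Kcnip1 had 7.80 in relapsed 1 and 6.19 and 6.09 in relapsed 2 and 3, against 6.58 to 7.31 in control tumours, so that 1 relapsed array lay above all others and the other two below all controls. The Kv4 accessory peptidase homologues Dpp6 and Dpp10, which complete neuronal A-type channels, differed by 0.10 ± 0.08 and 0.01 ± 0.05, and Dpp10 was dim in both groups.

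Of the 17 auxiliary subunits and regulators, Kcnip3 and Kcnab3 fell (11.8%, against 5.47% of all genes) and none rose (against 3.69%) by limma. At an unadjusted p under 0.05, 3 were lower (17.6%) and 1 higher (5.88%), against 15.4% and 11.2% of all genes. Kcnab3 encodes a beta subunit of Kv1 channels. Its level was 6.01, 6.02 and 5.96 in relapsed and 6.57, 6.82 and 6.43 in control tumours, and the groups did not overlap. Kcnab3 fell by 0.61 ± 0.11 (adjusted p = 0.0317 in limma). That call remained without control 2 and was lost in the other 5 fits with 1 array left out, with adjusted p of 0.0578 to 0.102. The related beta subunits went the other way by mean without passing, with differences of 0.42 ± 0.17 for Kcnab1 and 0.67 ± 0.36 for Kcnab2. Kcnab2 had 9.62 in relapsed 1, 8.77 in relapsed 2 and 8.20 in relapsed 3, against 8.07 to 8.36 in control tumours, so relapsed 1 was the highest and relapsed 3 lay within the range of the controls. Kcnmb4, the neuronal beta subunit of calcium-activated BK channels, had 6.51, 6.57 and 6.58 in relapsed and 6.72, 7.42 and 7.35 in control tumours, a difference of -0.61 ± 0.20 with an adjusted p of 0.124 in limma. It passed without control 1, with an adjusted p of 0.0293. Kcne3, a single-span subunit that attaches to Kv channels, was higher on every relapsed array by 0.21 ± 0.08 without passing (adjusted p = 0.155). Kcnrg, which encodes a channel regulator, differed by 0.06 ± 0.13, with means below the unnamed-probe median in both groups.

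**Figure D2:**
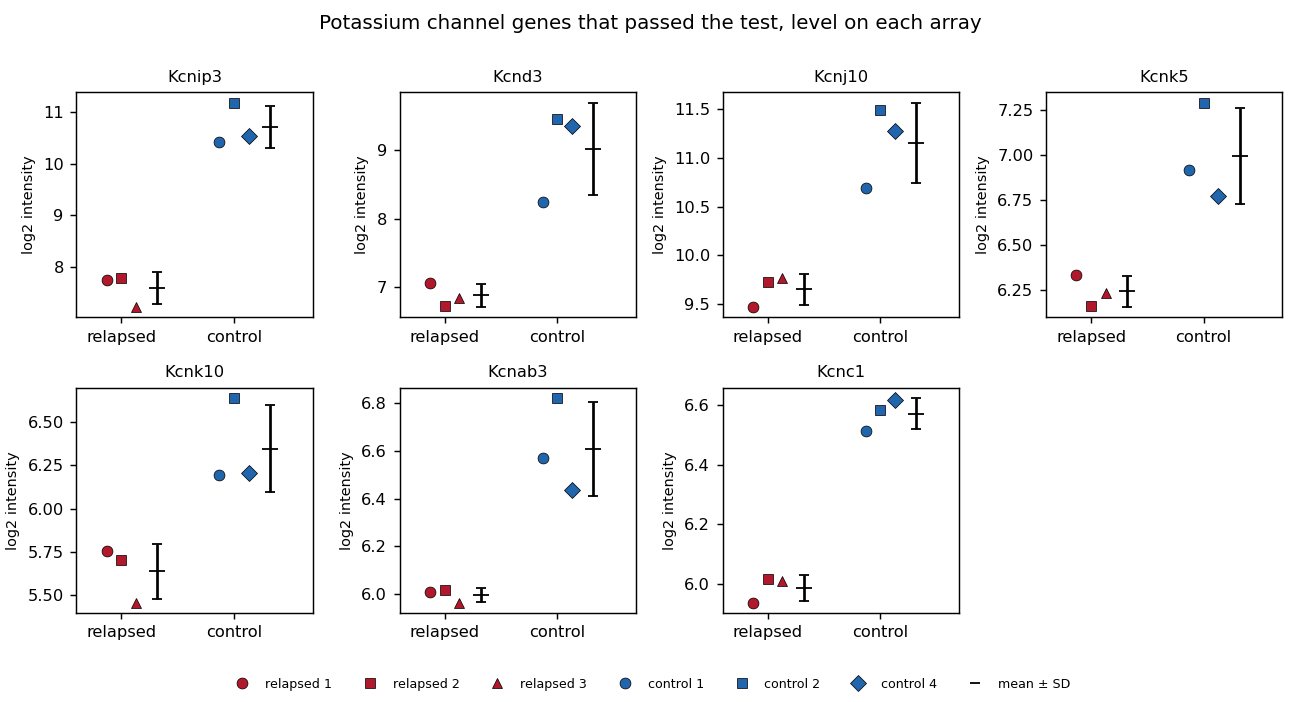
Log2 intensity (y axis) on each of the 3 relapsed and 3 control arrays for the 7 potassium channel genes that passed the test, with mean and SD beside the points. In each of the 7 panels every relapsed array lies below every control array, and Kcnip3 has the widest distance between the groups.

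Among 15 inward rectifiers, Kcnj10 fell (6.67%, against 5.47% of all genes) and none rose (against 3.69%) by limma. At an unadjusted p under 0.05, 3 were lower (20%) and 1 higher (6.67%), against 15.4% and 11.2% of all genes. Kcnj10 encodes Kir4.1, the main inward rectifier of astrocytes and oligodendrocyte lineage cells. Its level was 9.47, 9.72 and 9.77 in relapsed 1, 2 and 3, against 10.70, 11.50 and 11.27 in control 1, 2 and 4. The groups did not overlap, and all 6 values lay well above the unnamed-probe median. Kcnj10 fell by 1.50 ± 0.22, which is 2.83-fold (adjusted p = 0.0214 in limma). The call remained without control 1 and was lost in the other 5 fits with 1 array left out, with adjusted p of 0.0532 to 0.0846. Kcnj16, which encodes Kir5.1 and forms mixed channels with Kir4.1, was also lower on every relapsed array, with 6.88, 6.14 and 6.65 against 6.91, 8.27 and 8.06 in control tumours. Control 1 was close to relapsed 1 for this gene, and the difference of -1.19 ± 0.41 missed the threshold (adjusted p = 0.138).

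Markers of oligodendrocyte progenitors were lower in the same tumours. Of 10 measured markers 6 fell and none rose, and their mean level was 7.83 to 7.88 in relapsed and 9.13 to 9.65 in control tumours. Astrocyte markers, of which 2 of 9 fell and 1 rose, overlapped between the groups with mean levels of 8.88 to 9.35 in relapsed and 8.49 to 9.45 in control tumours. On single markers, the progenitor factor Olig2 averaged 7.29 in relapsed and 10.84 in control tumours. The glial filament gene Gfap overlapped between the groups, with 9.32 to 10.73 in relapsed and 8.63 to 9.84 in control tumours (adjusted p = 0.466 in limma). The part of either cell type in the levels of Kcnip3, Kcnd3 and Kcnj10 was not tested. In these whole-tumour extracts, fewer cells of a type and less RNA per cell cannot be told apart.

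Kcnj8 encodes the Kir6.1 pore of ATP-sensitive channels, which pericytes pair with the sulfonylurea receptor Abcc9. Its level was 7.87, 7.40 and 7.32 in relapsed and 7.80, 8.06 and 8.30 in control tumours, a difference of -0.52 ± 0.19 with an adjusted p of 0.161 in limma. Abcc9 differed by -0.28 ± 0.13 and Abcc8, the receptor of insulin-secreting cells, by -0.04 ± 0.09, and neither passed. Pericyte and smooth muscle markers averaged 8.50 to 9.42 in relapsed and 8.26 to 8.83 in control tumours and so overlapped. Kcnj14 was higher on every relapsed array by 0.19 ± 0.07 without passing (adjusted p = 0.179). Kcnj15 had the largest positive difference of all members, 1.10 ± 0.66 (adjusted p = 0.363), but the 3 relapsed arrays disagreed. It had 8.67 in relapsed 3, 6.57 in relapsed 1 and 6.18 in relapsed 2, while the control tumours had 5.93 to 6.19, and without relapsed 3 the difference was 0.33. Relapsed 3 also had the highest mean of 10 keratinocyte markers, 7.13 against 5.47 to 5.64 on the other arrays, and their part in the level of Kcnj15 was not tested.

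Of 14 tandem-pore-domain channels, 2 fell (14.3%, against 5.47% of all genes) and none rose (against 3.69%) by limma. At an unadjusted p under 0.05 the counts were the same, with 14.3% lower, against 15.4% of all genes, and none higher, against 11.2%. Kcnk5 encodes TASK-2, an alkaline-activated leak channel. Its level was 6.33, 6.16 and 6.24 in relapsed and 6.92, 7.29 and 6.77 in control tumours, without overlap, and it fell by 0.75 ± 0.15 (adjusted p = 0.0390). Kcnk10 encodes TREK-2, a leak channel opened by stretch and lipids. Its level was 5.76, 5.70 and 5.46 in relapsed and 6.20, 6.64 and 6.21 in control tumours. The groups did not overlap, but the relapsed mean of 5.64 lay below the unnamed-probe median, so the size of the fall of 0.71 ± 0.15 (adjusted p = 0.0494 in limma) is uncertain. With 1 array left out, Kcnk5 kept its call without control 2 and lost it in the other 5 fits, with adjusted p of 0.0676 to 0.119, and Kcnk10 lost it in all 6, with adjusted p of 0.0749 to 0.137. Kcnk6, a leak channel known in macrophages, had 9.62 in relapsed 1, 8.78 in relapsed 2 and 8.65 in relapsed 3, against 8.23, 8.18 and 8.84 in control tumours. Control 4 lay above relapsed 2 and relapsed 3, and the difference of 0.60 ± 0.32 missed the threshold (adjusted p = 0.308).

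None of the 8 calcium- and sodium-activated channels was called by limma, against 9.16% of all genes. At an unadjusted p under 0.05 Kcnn4 was the only one lower (12.5%), against 15.4% of all genes, and none was higher, against 11.2%. Kcnn4 encodes KCa3.1, an intermediate-conductance channel studied in glioma cells and microglia. Its level was 9.26, 10.22 and 10.38 in relapsed and 10.94, 10.77 and 10.89 in control tumours. The controls were close together and all above the relapsed arrays, of which relapsed 1 was the lowest. The difference was -0.91 ± 0.30 with an adjusted p of 0.131 in limma. Without relapsed 1 the difference was -0.56 and passed, with an adjusted p of 0.0461. Kcnt2 and Kcnu1 differed by 0.26 ± 0.19 and -0.06 ± 0.10, and Kcnt2 by 0.045 without relapsed 1. The means of Kcnt2 lay below the unnamed-probe median in both groups.

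Kcnma1 encodes the pore of BK channels, and its 2 probe sets gave different pictures. The probe set with the higher mean had 5.94, 6.19 and 11.50 in relapsed 1, 2 and 3, against 11.87, 11.98 and 6.94 in control 1, 2 and 4. Relapsed 3, control 1 and control 2 were thus high and the others low, so that both groups were split, and the difference was -2.39 ± 2.09 (adjusted p = 0.532). It was -4.20 without relapsed 3, -4.05 without control 4 and -1.58 to -1.42 without any 1 of the other arrays, and -5.86 with the replicate number as a block. None of the 4 accessions listed for this probe set is a RefSeq transcript of Kcnma1, so its signal cannot be credited to that gene here. The other probe set, of whose 20 listed accessions 17 are RefSeq transcripts of Kcnma1, had 7.04, 6.31 and 6.43 in relapsed and 6.65, 6.95 and 7.04 in control tumours. It differed by -0.29 ± 0.22 and overlapped between the groups. For 89 of the 92 members the probe set used lists at least 1 RefSeq transcript of the gene, the others being Kcnma1, Kcnk15 and Kcnmb4os2.

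Some members differed mainly on 1 relapsed array. The SD among relapsed arrays exceeded 0.5 for 9 members (9.78%), against 5.84% of all genes, and among control arrays for 5 members (5.43%), against 3.77%. Kcnmb1, the beta subunit of smooth muscle BK channels, had 8.11 in relapsed 1, 6.56 in relapsed 2 and 5.69 in relapsed 3, against 6.42 to 6.90 in control tumours. Relapsed 1 also had the highest mean of adipocyte markers, 9.39 against 6.38 to 6.82 on the other arrays, and of pericyte and smooth muscle markers, 9.42. Control 2 stood apart in skeletal muscle markers, with a mean of 9.51 against 6.98 to 7.74. The part of these tissues in the levels of Kcnmb1, Kcnip1 and Kcnab2 was not tested.

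**Figure D3:**
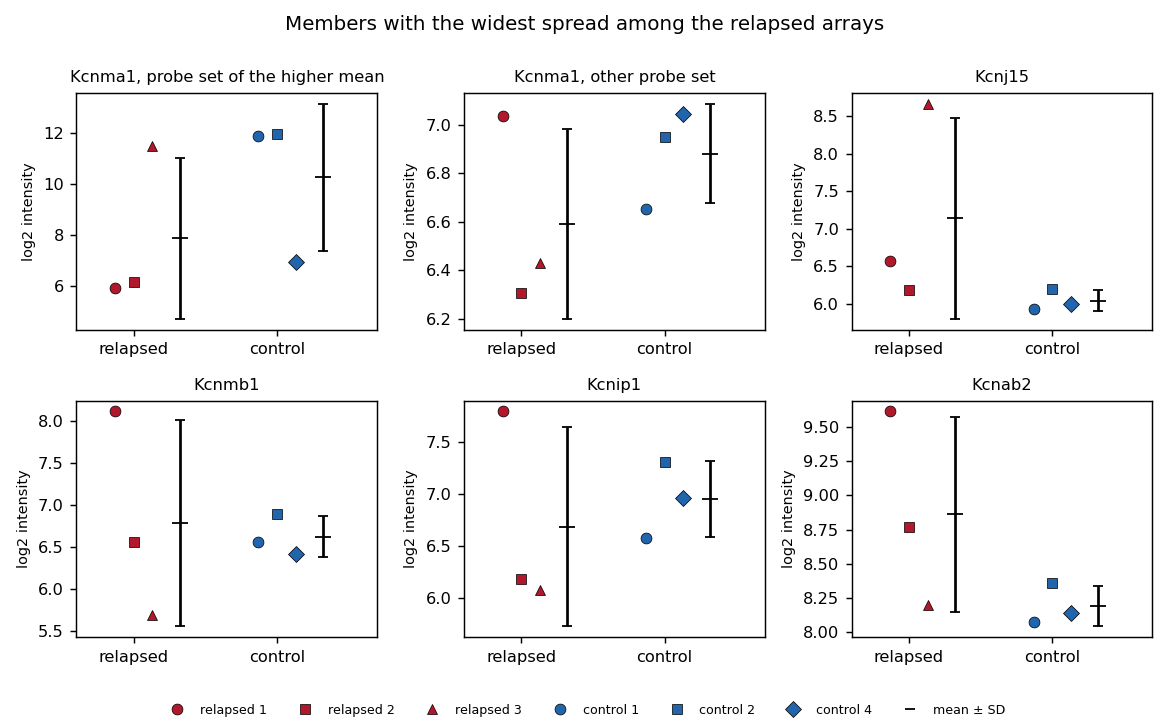
Log2 intensity (y axis) on each array for both probe sets of Kcnma1 and for Kcnj15, Kcnmb1, Kcnip1 and Kcnab2, with mean and SD. The first Kcnma1 panel shows high and low arrays in both groups, and relapsed 3 stands out for Kcnj15 and relapsed 1 for Kcnmb1, Kcnip1 and Kcnab2.

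**Figure D4:**
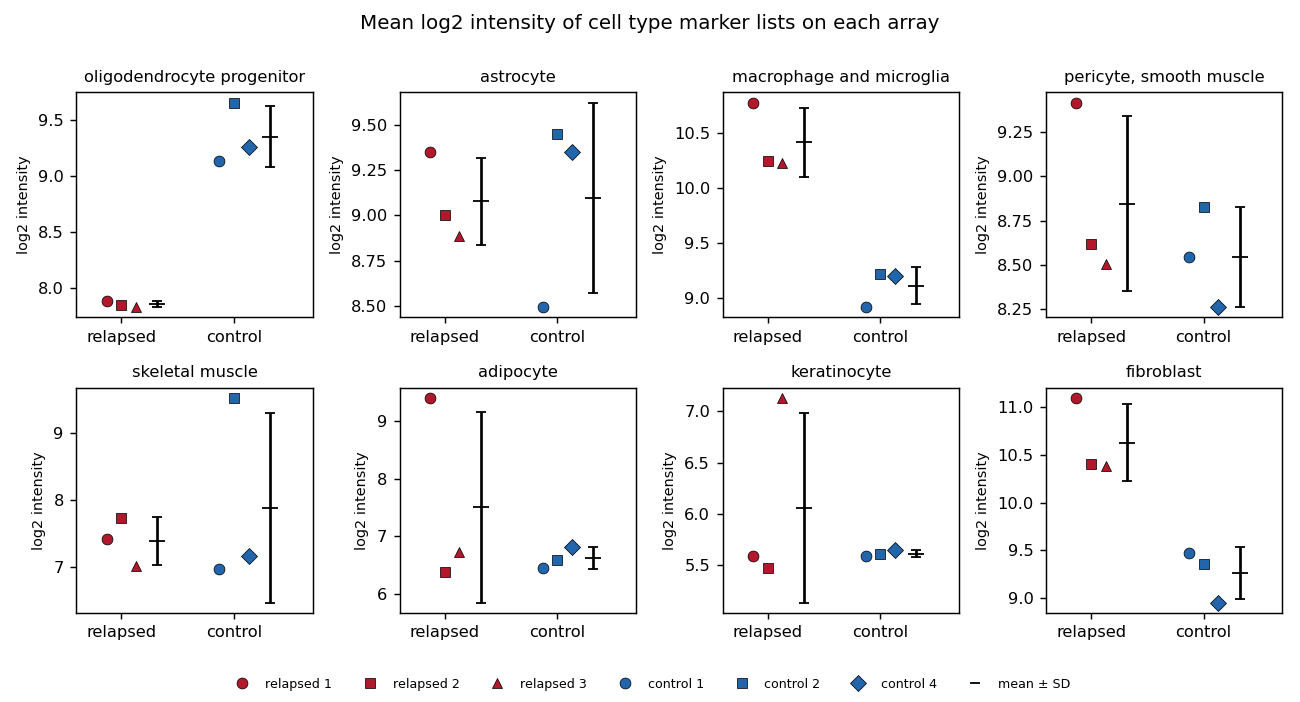
Mean log2 intensity (y axis) of 8 cell type marker lists on each of the 3 relapsed and 3 control arrays, with mean and SD. Progenitor markers are lower and macrophage and fibroblast markers higher on all relapsed arrays, and single arrays stand out for skeletal muscle, adipocyte and keratinocyte markers.

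Genes that work with potassium channels or move potassium by other routes were taken as lists of 41 entries, of which 35 were measured. By limma 3 of them fell, or 8.57%, and 1 rose, or 2.86%, against 5.47% and 3.69% of all genes, shares near that background. Amigo1, an adhesion protein that accompanies Kv2 channels, fell to 7.30, 7.68 and 7.29 in relapsed tumours, against 8.67, 8.41 and 8.23 in control tumours, a difference of -1.01 ± 0.16 (adjusted p = 0.0257). Dlg4, the scaffold PSD-95 that gathers Kv1 channels and glutamate receptors, had 9.05, 9.09 and 8.68 in relapsed and 9.85, 10.002 and 9.82 in control tumours, and it fell by 0.95 ± 0.13 (adjusted p = 0.0190). For both genes every relapsed array lay below every control array. Hcn2, a pacemaker cation channel opened by hyperpolarization, fell by 0.58 ± 0.12 (adjusted p = 0.0492 in limma) and lost its call in all 6 fits with 1 array left out, with adjusted p of 0.0724 to 0.132. Amigo1 kept its call without relapsed 2 and lost it in the other 5 fits, with adjusted p of 0.0631 to 0.0867. Dlg4 kept it without relapsed 1 or relapsed 3 and lost it in the other 4, with adjusted p of 0.0519 to 0.0678.

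The sodium-potassium pump imports potassium against its gradient. Of 8 measured pump genes, 1 rose (12.5%, against 3.69% of all genes) and none fell (against 5.47%) by limma. For 3 of the 8 (37.5%) every relapsed array lay above every control array, against 13.0% of all genes. Fxyd5, a regulatory subunit also called dysadherin, had 13.01, 12.78 and 12.64 in relapsed and 11.84, 12.14 and 11.92 in control tumours. The groups did not overlap and Fxyd5 rose by 0.85 ± 0.13 (adjusted p = 0.0227), a call that remained without relapsed 1 or control 2 and was lost in the other 4 fits with 1 array left out, with adjusted p of 0.0583 to 0.0871. Fxyd1 and Atp1b3, further pump subunits, were higher on every relapsed array by 1.04 ± 0.41 and 0.33 ± 0.11 without passing (adjusted p of 0.185 and 0.148 in limma). None of 4 measured cation-chloride cotransporters was called, and Slc12a4, a potassium-chloride cotransporter, had a difference of -0.63 ± 0.16 with an adjusted p of 0.0692 in limma.

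**Figure D5:**
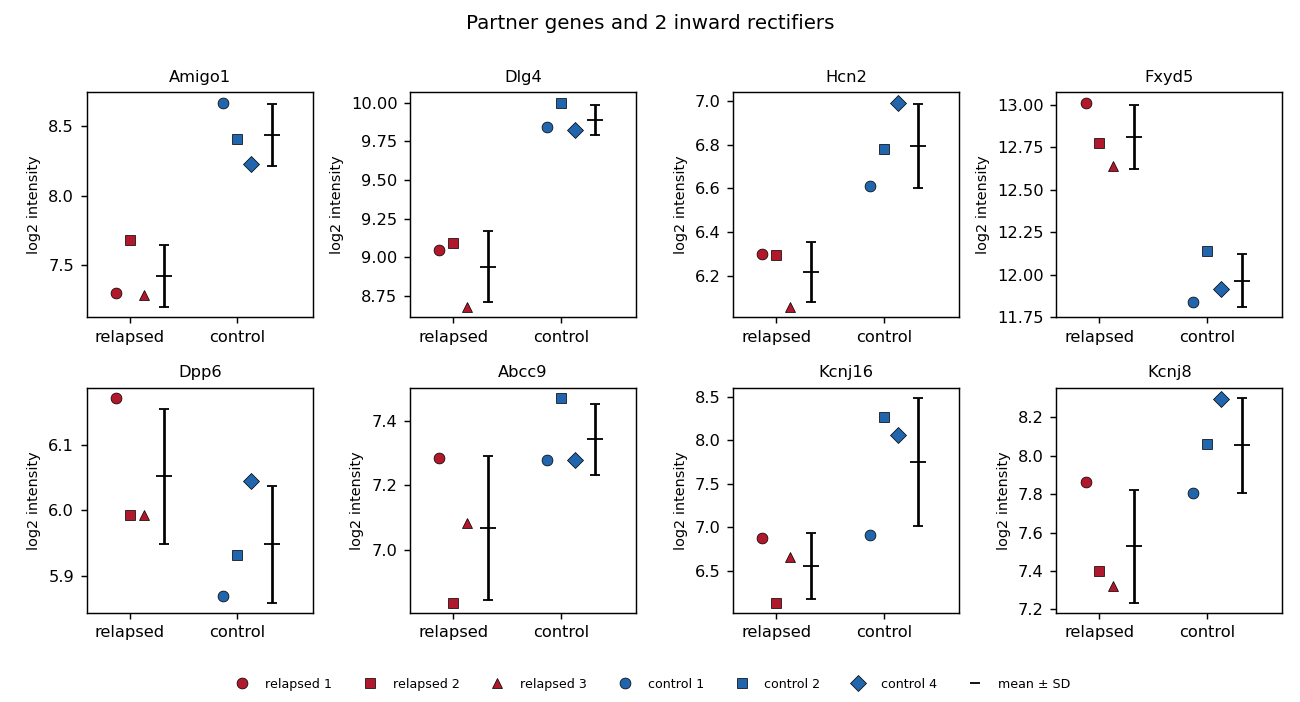
Log2 intensity (y axis) on each array for the 4 partner genes that passed the test (Amigo1, Dlg4, Hcn2 and Fxyd5), for Dpp6 and Abcc9, and for the inward rectifiers Kcnj16 and Kcnj8, with mean and SD. Relapsed arrays lie below control arrays for Amigo1, Dlg4 and Hcn2 and above them for Fxyd5.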

How the data were processed

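Total RNA of 6 tumours was hybridised to Affymetrix arrays, 1 per tumour. The deposited table holds log2 intensities from 1.93 to 14.2, used as deposited. Array medians were 6.67 to 6.68 in relapsed and 6.58 to 6.62 in control tumours. The submitters' processing notes name affy without a version, and how background, scaling and summarization were handled is not stated there. Scaling arrays to each other, if it was done, hides a change shared by most transcripts. Of 35556 probe sets, 21789 had 1 gene symbol, 1621 several and 12146 none listed. The highest-mean probe set stood for each of 19938 genes, with no filter on dim genes. Differences were fitted with limma 3.58.1 in R 4.3.3 (lmFit, eBayes, group as the only term, 4 residual degrees of freedom, prior 1.53), tested on simulated data, two-sided, with Benjamini-Hochberg adjustment over all genes. Levels carry the SD and differences the standard error. The number of arrays limits the precision.

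Members, gene lists and tests were chosen with earlier results of these data known. Named are called members, members with a difference of at least 1 on the log2 scale, the gene of the smallest p in each family with neither, 5 genes set by name and called partner genes. Others (Kcnd1, Kcnd2, Kcnip1, Kcnip2, Kcnip4, Kcnab1, Kcnab2, Kcnh2, Kcnh7, Kcnj14, Kcnk6, Kcnmb1, Kcnd3os, Dpp6, Dpp10, Abcc8, Abcc9, Fxyd1, Atp1b3 and Slc12a4) and the promoter motifs were chosen after their values or sequences were seen. The alternatives were a filter on dim genes, 2 normalizations of the deposited values, the mean of a gene's probe sets and a trended variance prior. Further ones were the replicate number as a block, each array left out in turn and all probe sets tested. Promoter windows come from RefSeq, build GRCm38.p6. RefSeq holds 6 further Kcn symbols, which were not analysed here.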

Additional observations from a re-analysis of the deposited data

How the results depend on the processing

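The number of potassium channel genes that fell was 7 with quantile normalization, with each array centred on its median, with the mean of a gene's probe sets and with a trended variance prior, and 5 with all probe sets tested. It was 3 with the dimmer 50% of genes left out, where 12 members were tested and 11.7% of all genes fell. These 3 were Kcnip3, Kcnd3 and Kcnj10. Kcnc1, Kcnk5, Kcnk10 and Kcnab3 were in the dimmer part and so were not tested in that fit. With 1 array left out the number that fell was 2 to 5, and 2 of the 7, Kcnip3 and Kcnc1, were called each time. The number was 2 without relapsed 2, relapsed 3 or control 4, 4 without relapsed 1 or control 2 and 5 without control 1. Only 2 of the 4 called without relapsed 1, and 4 of the 5 called without control 1, were among the 7. No member rose under any of these settings. Among the alternatives, the share of all genes called was counted only with the dimmer genes left out. The other counts therefore cannot show whether calls changed more among members than among all genes. Partner genes that fell numbered 0 to 1 and those that rose 0 to 1 with 1 array left out, against 3 and 1 with all arrays. With the replicate number as a block, which leaves 1 pair each for numbers 1 and 2, limma called 0 members and 0 partner genes in either direction. Deviations from the group means correlated at -0.337 for number 1 and -0.248 for number 2. With 3 arrays per group, these values cannot show whether tumours of the same number share an origin or a batch. Of 329 differences under these settings, of the genes named by rule, 9 changed sign, all of genes that were not called and lay near 0. The differences of the genes chosen after their values were seen were not followed under these settings. With 1 array left out, Kcnf1 ranged from -0.28 to 0.24 (0.24 without relapsed 1 and 0.045 without control 2), Kcnq3 from -0.0011 (without relapsed 1) to 0.20, Kcnu1 from -0.13 to 0.048 (without control 1) and Kcnrg from -0.031 (without control 2; -0.028 without relapsed 3) to 0.15. Kcnrg was -0.011 with quantile normalization, -0.016 with median centring and -0.034 with the replicate block. Why these values moved was not tested beyond the fewer arrays or genes in each fit. Median centring moved the median difference of all genes by -0.07. Dim signal limits what can be seen of the 23 members below the unnamed-probe median in both groups.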

Other observations

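Many members had the same value on several arrays in the deposited table. The same value to all deposited decimals occurred on 3 or more of the 6 arrays for 26 of 92 members (28.3%), against 20.3% of all genes. For such genes the SD between arrays rests on few distinct values. The 2 transcripts annotated on the opposite strand of Kcnmb4, Kcnmb4os1 and Kcnmb4os2, had differences of -0.07 and -0.14 and were not called, beside -0.61 for Kcnmb4.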
